A study of Mus musculus with 16 samples.

Results

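The 9 genes described here, Adamts1, Adamts2, Adamts4, Adamts5, Adamts8, Adamts9, Adamts10, Adamts12 and Adamts15, encode secreted ADAMTS metalloproteases of the aortic wall. They are 9 of the 31055 features of the count tables and were taken by symbol. The study dissociated thoracic aortas of mice and sequenced single cells, 1 mouse per library, to follow the loss of Smad3, a transcription factor activated by TGF-β receptors, from vascular smooth muscle cells (VSMCs) at a time before dilation could be detected and at a time of moderate dilation. Mice labelled Smad3SmKO were homozygous for a floxed Smad3 allele, and Smad3+/+ mice were the controls. All mice of both genotypes carried the tamoxifen-inducible Myh11-CreER transgene, which acts in smooth muscle and is Y-linked, so all were males, and all received 2 mg of tamoxifen a day for 5 days from 6 weeks of age. Some mice also carried a conditional EGFP-L10a tracer of the cells in which Cre had acted. All were of the 129S6/SvEv strain. The aortas taken 10 weeks after deletion gave 2 Smad3+/+ and 2 Smad3SmKO libraries, digested for 60 min in 1 batch. Those taken at 18 weeks gave 5 Smad3+/+ and 7 Smad3SmKO libraries, of which 7 came from 30 min digestions in 3 batches and 5 from 60 min digestions in 2 batches.

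ADAMTS enzymes carry a zinc-binding metalloprotease domain and thrombospondin repeats, and are made as proenzymes that furin-like convertases cleave. In the artery wall their best known substrates are the large proteoglycans versican and aggrecan, which hold water between the elastic lamellae, and the N-propeptides of fibrillar procollagens. TIMP-3 inhibits several of them, and the endocytic receptor LRP1 removes some from the cell surface.

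The coding sequence of the zinc-binding site is shown for each member because this site marks the family and lets the members be set side by side. The site holds 3 histidines that bind zinc and the catalytic glutamate, and the capitals mark their codons. Each run of 36 coding bases is written 5′ to 3′ on the strand of the gene, from the GRCm38 genome with the GENCODE vM21 annotation, and is split by an intron in all 9 genes.
Adamts1: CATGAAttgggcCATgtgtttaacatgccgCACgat
Adamts4: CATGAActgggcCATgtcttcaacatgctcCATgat
Adamts5: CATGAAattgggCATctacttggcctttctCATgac
Adamts8: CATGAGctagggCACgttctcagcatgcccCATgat
Adamts9: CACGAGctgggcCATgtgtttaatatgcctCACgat
Adamts15: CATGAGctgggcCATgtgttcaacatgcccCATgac
Adamts2: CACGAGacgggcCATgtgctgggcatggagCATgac
Adamts10: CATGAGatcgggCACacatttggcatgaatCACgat
Adamts12: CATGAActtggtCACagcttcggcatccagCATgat

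The most alike pair was Adamts4 and Adamts15, with 32 of the 36 bases the same, followed by Adamts1 and Adamts9 with 31. The least alike pairs, Adamts5 with Adamts9 and Adamts9 with Adamts12, shared 20. The site lay at chr16:85799188-85799545 in Adamts1 (exons 3 and 4 of 9, minus strand), chr1:171253210-171253918 in Adamts4 (exons 3 and 4 of 9, plus strand), chr16:85878012-85887826 in Adamts5 (exons 2 and 3 of 8, minus strand) and chr9:30952721-30953381 in Adamts8 (exons 3 and 4 of 9, plus strand). It lay at chr6:92905282-92908493 in Adamts9 (exons 8 and 9 of 40, minus strand), chr9:30911252-30911690 in Adamts15 (exons 2 and 3 of 8, minus strand), chr11:50775403-50776137 in Adamts2 (exons 7 and 8 of 22, plus strand), chr17:33538157-33538282 in Adamts10 (exons 9 and 10 of 25, plus strand) and chr15:11241529-11255567 in Adamts12 (exons 7 and 8 of 24, plus strand). Adamts1 (chr16:85793827-85803113) and Adamts5 (chr16:85856173-85901828) are neighbours, with 53059 bases between them, and so are Adamts15 (chr9:30899155-30922452) and Adamts8 (chr9:30942562-30963838), with 20109 bases between them. The other members stand at chr11:50602084-50807573 (Adamts2), chr1:171250421-171260637 (Adamts4), chr6:92772699-92943492 (Adamts9), chr17:33524204-33553782 (Adamts10) and chr15:11064790-11349231 (Adamts12).

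Of 66349 deposited cell barcodes, 50858 were kept, between 631 and 6497 per library, and the libraries held 12539539 to 52843031 unique molecular identifiers (UMIs, each counting 1 captured RNA molecule). VSMCs were cells with at least 5 UMIs of Myh11 (smooth muscle myosin) and more of it than of Dcn (decorin), 8950 cells and 22 to 1706 per library. Fibroblasts were cells with at least 5 UMIs of Dcn and more of it than of Myh11, 36066 cells and 196 to 5505 per library. The endothelium rule, at least 2 UMIs of Pecam1 and Cdh5 together, took 3303 cells, 31 to 469 per library, of which 2049 also met 1 of the other 2 rules, so its sums mixed endothelium with other cells and are given beside the sums of cells that met it alone. VSMC sums held 16782 to 35886 CPM of Acta2 (CPM is the standard scaling of a gene's count to a fixed total). Their Cdh5 level ran from 0 to 5.43 CPM. Cells of the endothelium rule, which itself used Cdh5, held 49.6 to 341 CPM of it. Pairs of libraries shared 5157 of 59572 distinct barcodes, most of them Smad3+/+ replicates 4 and 5 at 18 weeks, where 3507 were shared but 2 were kept in both. The level of Smad3 in VSMCs was 2.83 to 9.89 CPM in the Smad3+/+ libraries and 4.04 to 17.3 CPM in those labelled Smad3SmKO at 18 weeks. It did not separate the labels, and a count at the 3′ end need not cover the deleted part of the gene, so it does not check them.

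Each level is the CPM of a gene among all UMIs of 1 cell type in 1 library, so it is a share of that type's RNA and not an amount per cell. Levels of different genes are not compared. Across the 16 libraries, 6 of the 9 members were higher in fibroblasts than in VSMCs, 2 were lower and Adamts1 passed in neither direction (edgeR quasi-likelihood test with library as a block, 48 sums of 3 cell types). The test called 74.6% of the 11974 genes tested in that comparison, so the number of members called is near the background. The members' median log2 difference was 1.51 against 0.02 over all genes tested.

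Among the proteoglycan-cleaving members, Adamts5, a principal aggrecanase, stood at 95.4 CPM in its lowest fibroblast library, 174 in the median one and 239.7 in the highest. In VSMCs it ran from 21.4 through a median of 31.2 to 70.6 CPM, so the cell types did not overlap, and fibroblasts were higher in 16 of 16 libraries. The log2 difference was 2.23 (SE 0.16, edgeR adjusted p = 1.0e-14). The share of all genes without overlap between these cell types was not counted.

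Adamts4, the other principal aggrecanase, was sparse in VSMCs, with 0 to 28 UMIs per library and a median of 1.32 CPM (0 to 7.61). Fibroblasts held a median of 8.02 CPM (3.02 to 54.3) and were higher in 16 of 16 libraries, though the ranges overlapped. The log2 difference was 3.62 (SE 0.32, edgeR adjusted p = 2.0e-12), and it was 1.44 in the 30 min digestions alone and 4.00 in the 60 min digestions alone. Adamts15, a versican-cleaving member, had a median of 18.5 CPM in fibroblasts (6.31 to 48.0) and 6.13 CPM in VSMCs (1.95 to 17.8), with overlapping ranges but fibroblasts higher in 16 of 16 libraries (log2 difference 1.51, SE 0.15, edgeR adjusted p = 4.3e-11).

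Adamts8 and Adamts9 were lower in fibroblasts than in VSMCs. Adamts8, a proteoglycan-cleaving member with antiangiogenic activity, had a median of 10.9 CPM in VSMCs (4.85 to 18.5) and 5.42 CPM in fibroblasts (0.65 to 9.19), and fibroblasts were lower in 14 of 16 libraries (log2 difference -1.16, SE 0.22, edgeR adjusted p = 2.0e-05). Adamts9, which cleaves versican and aggrecan, had a median of 12.9 CPM in VSMCs (7.14 to 23.8) and 6.37 CPM in fibroblasts (3.42 to 13.8), and fibroblasts were lower in 15 of 16 libraries (log2 difference -0.82, SE 0.19, edgeR adjusted p = 0.00023). The ranges of both genes overlapped between the cell types.

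Adamts1, an early described versican- and aggrecan-cleaving member, had a median of 113 CPM in VSMCs (63.1 to 610.2) and 156 CPM in fibroblasts (104 to 331). Fibroblasts were higher in 9 of 16 libraries, and over all of them the difference was not called (log2 difference -0.07, SE 0.27, 95% interval -0.58 to 0.45, edgeR adjusted p = 0.84). The sign differed between the digestion times, which also differed in batch and in part in weeks after deletion. Fibroblasts were lower in the 30 min digestions (log2 difference -1.24, SE 0.14, edgeR adjusted p = 3.1e-07) and higher in the 60 min digestions (log2 difference 1.04, SE 0.16, edgeR adjusted p = 5.0e-06).

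The procollagen N-proteinase Adamts2 had a median of 312 CPM in fibroblasts (176 to 478) and 72.3 CPM in VSMCs (56.0 to 175), higher in fibroblasts in 16 of 16 libraries (log2 difference 1.91, SE 0.13, edgeR adjusted p = 6.2e-16). Its ranges nearly met but did not overlap, at 175.98 CPM in the lowest fibroblast library and 175.18 CPM in the highest VSMC library. Adamts12, which cleaves the cartilage oligomeric matrix protein, had a median of 8.21 CPM in fibroblasts (4.77 to 17.6) and 2.05 CPM in VSMCs (0 to 7.11), and was also higher in 16 of 16 (log2 difference 1.83, SE 0.17, edgeR adjusted p = 8.1e-12). Adamts10, a microfibril-associated member, had a median of 48.2 CPM in fibroblasts (30.8 to 81.9) and 26.5 CPM in VSMCs (14.9 to 49.8), the smallest called difference of the members (log2 difference 0.70, SE 0.08, edgeR adjusted p = 6.1e-10).

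**Figure D1:**
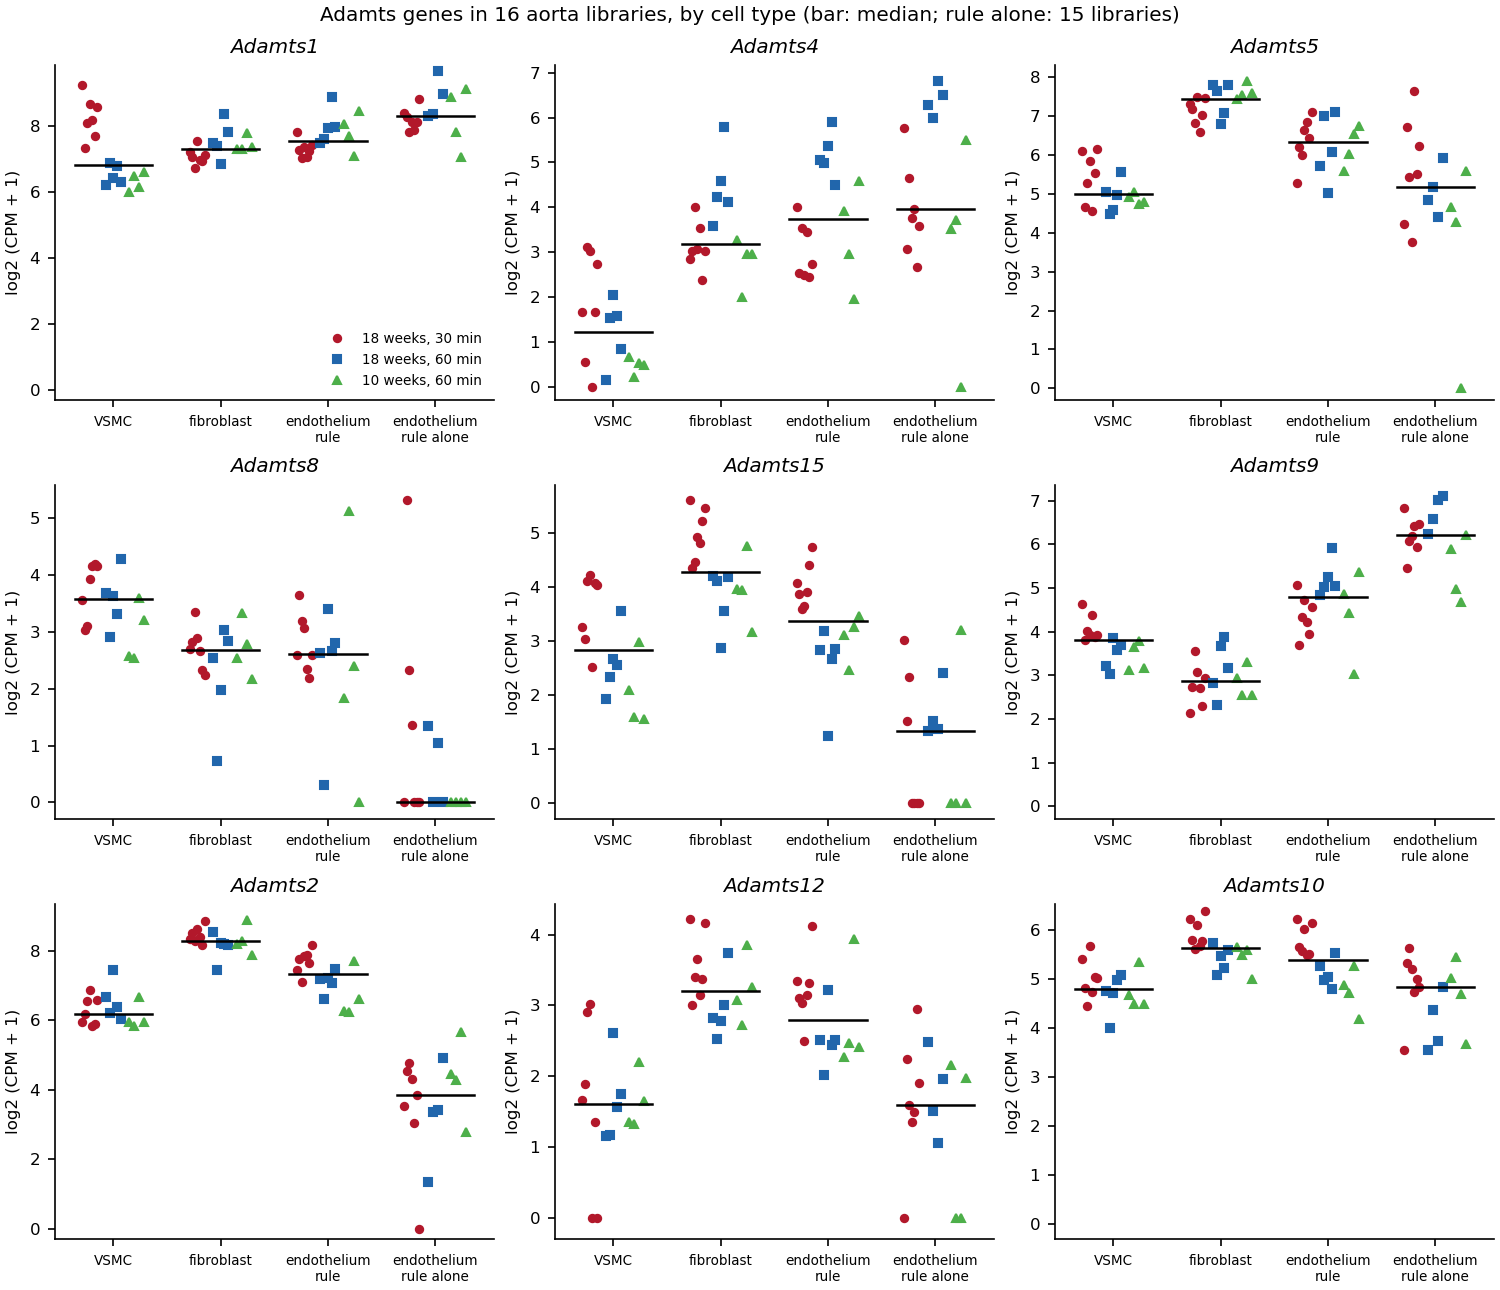
Levels of the 9 members, with log2(CPM + 1) on each vertical axis and, along the horizontal axis, VSMCs, fibroblasts, cells of the endothelium rule and cells that met the endothelium rule alone. Each point is 1 of 16 libraries (15 for the rule alone), coloured by time and digestion, and the bar is the median. Adamts2 falls from a median of 161 CPM in all cells of the endothelium rule to 13.4 CPM in those that met it alone, while Adamts9 goes from 26.6 to 73.4 CPM.

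Fibroblast transcripts found in VSMC sums give the scale of RNA from other cells. The VSMC median was 0.994% of the fibroblast median for Dcn, which the rule itself used, 0.872% for Dpep1, 2.40% for Lum, 2.56% for Pdgfra and 3.46% for Serpinf1, but 17.7% for Col1a1. For the members higher in fibroblasts, the same ratio was 16.5% for Adamts4, 17.9% for Adamts5, 23.2% for Adamts2, 25% for Adamts12, 33.2% for Adamts15 and 55.0% for Adamts10. All 6 ratios were above those of the 5 named fibroblast markers other than Col1a1.

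Leukocytes gave a further comparison, and whether their counts came from RNA of other cells or were their own was not tested. Their 1359 cells held 11919441 UMIs in all, with 107 UMIs of Adamts10 (8.98 CPM), 58 of Adamts1 (4.87 CPM), 28 of Adamts2 (2.35 CPM), 21 of Adamts5 (1.76 CPM) and 4 or fewer of each other member. Adamts12 had 0 UMIs there, which allows up to 0.252 CPM (3 counts, counting error only, as for the intervals of the pooled values given at the end).

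Adamts4 was held, by at least 1 UMI, in 0.760% of VSMCs, 7.73% of fibroblasts and 9.84% of cells of the endothelium rule, against 0.221% of leukocytes. After each cell was thinned to 2000 UMIs the shares were 0.223%, 2.09%, 3.09% and 0.0736%. Adamts1 was held in 37.9% of VSMCs, 51.1% of fibroblasts, 54.6% of cells of the endothelium rule and 2.80% of leukocytes, and after thinning in 15%, 23.6%, 26.8% and 0.883%. The median UMIs per cell ran over libraries from 5812 to 21902 in VSMCs, 4318.5 to 26326 in fibroblasts, 3847 to 23400 in cells of the endothelium rule and 4394.5 to 10896 in leukocytes. Cells thinned in this way held none of the 9 members in 60.7% of VSMCs, 31.6% of fibroblasts and 42.6% of cells of the endothelium rule. They held at least 1 UMI of exactly 2 members in 6.63%, 21.8% and 13.7%, and of exactly 3 in 0.816%, 6.24% and 2.66%.

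The endothelium rule was compared with VSMCs and with fibroblasts. Against VSMCs, 6 members were called higher and 1 lower, where 68.4% of the genes tested were called. Against fibroblasts, 1 member was called higher and 5 lower, where 40.8% were called. The members' median log2 difference was 0.79 in the first comparison and -0.38 in the second, against -0.01 and -0.03 over all genes tested.

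Adamts9 had a median of 26.6 CPM in the endothelium rule (7.16 to 59.6), higher than in fibroblasts in 15 of 16 libraries (log2 difference 1.84, SE 0.18, edgeR adjusted p = 2.3e-10) and than in VSMCs in 13 of 16 (1.02, SE 0.21, edgeR adjusted p = 4.2e-05). In all cells of the rule, the difference from VSMCs was not called in the 30 min digestions alone (0.08, edgeR adjusted p = 0.83) and was 1.5 in the 60 min digestions alone. In the cells that met the endothelium rule alone its median was 73.4 CPM (24.7 to 137.6). There it was higher than in either other type in 15 of 15 libraries with at least 20 such cells, by a log2 difference of 3.42 (SE 0.19) from fibroblasts and 2.59 (SE 0.21) from VSMCs. At 30 min those cells held 42.8 to 113.5 CPM of Adamts9 and VSMCs 13 to 23.8 CPM, with no overlap. The share of all genes without overlap there was not counted.

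Leaving out the cells that met a second rule moved other members as well. Adamts2 went from 0.79 above VSMCs (SE 0.13, edgeR adjusted p = 1.3e-06) to -2.65 (SE 0.22, edgeR adjusted p = 4.6e-13), with a median of 13.4 CPM (0 to 49.4). Adamts15 went from 0.32 (SE 0.19, edgeR adjusted p = 0.13) to -2.28 (SE 0.42, edgeR adjusted p = 1.1e-05). The cells that met the rule alone held only 15 UMIs of Adamts15. Adamts10 reversed from 0.33 (SE 0.09, edgeR adjusted p = 0.0014) to -0.38 (SE 0.15, edgeR adjusted p = 0.028).

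In the same cells Adamts12 went from a called 1.29 above VSMCs to -0.03 (SE 0.38, edgeR adjusted p = 0.95), and Adamts5 from a called 1.1 to 0.21 (SE 0.28, edgeR adjusted p = 0.53). Adamts4 kept its direction, at 3.92 (SE 0.35) in all cells of the rule and 5.03 (SE 0.41) in those that met it alone, and so did Adamts8, at -1.16 (SE 0.29) and -2.13 (SE 0.52). The cells that met the rule alone held only 27 UMIs of Adamts8, with a median of 0 CPM. Of these UMIs, 21 came from Smad3SmKO replicate 2 at 18 weeks. Adamts1 was not called above VSMCs in all cells (0.13, edgeR adjusted p = 0.69) and was called in those that met the rule alone (0.83, SE 0.28, edgeR adjusted p = 0.0089), where its median was 316 CPM (131.8 to 806). The sign differed between the digestion times here too. In all cells of the rule it was -1.09 (SE 0.14, edgeR adjusted p = 2.8e-06) at 30 min and 1.31 (SE 0.16, edgeR adjusted p = 5.8e-07) at 60 min. In the cells that met the rule alone the 30 min libraries had a median of 280.0 CPM, not above the VSMC median of 289.5 CPM, while those of 60 min had 397 against 85.3 CPM.

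Of the 7 members called against VSMCs in all cells, 3 either reversed with a call or changed sign and 4 kept their sign, which are Adamts4, Adamts5, Adamts8 and Adamts9. Those cells numbered 4 to 170 per library, and the 1 library with fewer than 20, Smad3SmKO replicate 7 at 18 weeks, had no endothelial sum in that fit and is left out of the levels given for those cells. Against fibroblasts, Adamts2 was lower in them by a log2 difference of -4.67 (SE 0.21), Adamts15 by -3.85 (SE 0.34), Adamts5 by -2.08 (SE 0.27), Adamts12 by -1.93 (SE 0.30) and Adamts10 by -1.15 (SE 0.14).

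**Figure D2:**
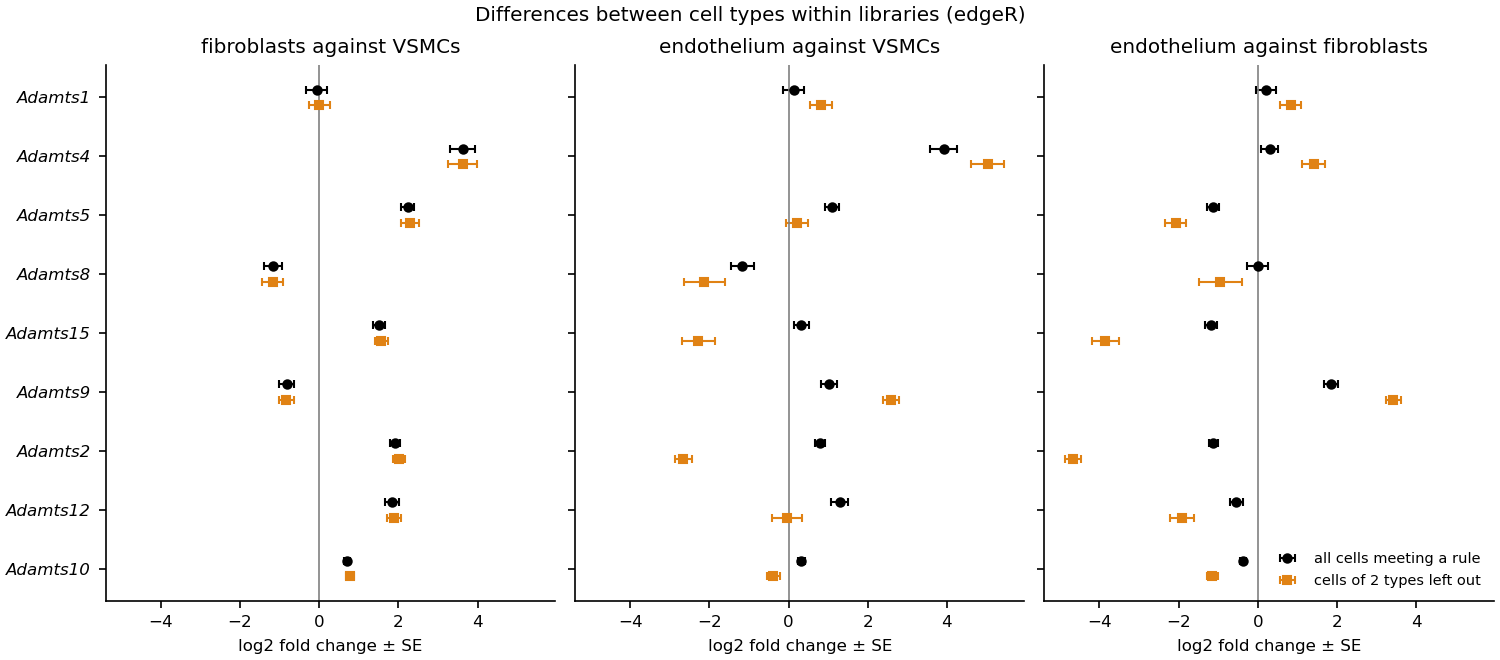
Log2 differences of the 9 members with their standard errors (horizontal axis) for fibroblasts against VSMCs, the endothelium rule against VSMCs and the endothelium rule against fibroblasts. The 2 symbols are the fit with all cells and the fit without cells that met more than 1 rule. Adamts2 crosses 0 against VSMCs, from 0.79 to -2.65, and Adamts9 moves further above 0, from 1.02 to 2.59.

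Among fibroblasts, 8 subsets were formed from marker pairs or triplets that left out the members, each cell going to the set with the highest sum of at least 2 UMIs. The values are a description over libraries with at least 20 cells of a subset, and 7503 fibroblasts stayed unassigned. Adamts5 was highest in the Dpp4/Smpd3 subset (542 cells), at a median of 684 CPM (569.9 to 1604, 9 libraries). It was lowest in the Coch/Wif1 subset (3612 cells), at a median of 26.3 CPM (12.8 to 77.5). The Dpp4/Smpd3 subset was above every other subset in each library that held both, 9 of 9 libraries for 5 of the subsets and 8 of 8 for the other two.

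Adamts2 was highest in the Hsd11b1/F3/Vegfd subset (12346 cells), with a median of 448 CPM (199 to 633), and lowest in the Coch/Wif1 subset, with a median of 106 CPM (82.6 to 184). Adamts15 had its highest median in the Cnmd/Inmt/Ggt5 subset (1768 cells), 42.5 CPM (9.71 to 106), and its lowest in the Chad/Thbs4 subset (860 cells), 5.32 CPM. Adamts8 had its highest median in the Tnfrsf11b/Dio2/Hhip subset (3477 cells), 11 CPM (4.06 to 18.6), and was near 0 in the Cnmd/Inmt/Ggt5 subset, 0.41 CPM. Adamts15 and Adamts8, neighbours on chromosome 9, thus had their highest medians in different subsets.

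Adamts4 had its highest median in the Has1/Spon2/Cxcl5 subset (5307 cells), 19.2 CPM (0 to 85.0), above the Hsd11b1/F3/Vegfd subset in 14 of 16 libraries but above the Cnmd/Inmt/Ggt5 subset in 9 of 15. Adamts1 also had its highest median there, 179.7 CPM (80.5 to 412), and its lowest in the Coch/Wif1 subset, 73.1 CPM (30.7 to 161), in the same direction in 14 of 14 libraries. At 30 min, though, its median in the Hsd11b1/F3/Vegfd subset (166 CPM) was above that in the Has1/Spon2/Cxcl5 subset (155 CPM), and the order was the other way in the 60 min libraries. Adamts10 ranged from a median of 27.0 CPM in the Coch/Wif1 subset to 61.9 CPM in the Foxd1/Col11a1 subset (651 cells). Adamts12 ranged from 4.39 CPM in the Tnfrsf11b/Dio2/Hhip subset to 14.1 CPM in the Dpp4/Smpd3 subset, and Adamts9 from 0 to 8.41 CPM.

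**Figure D3:**
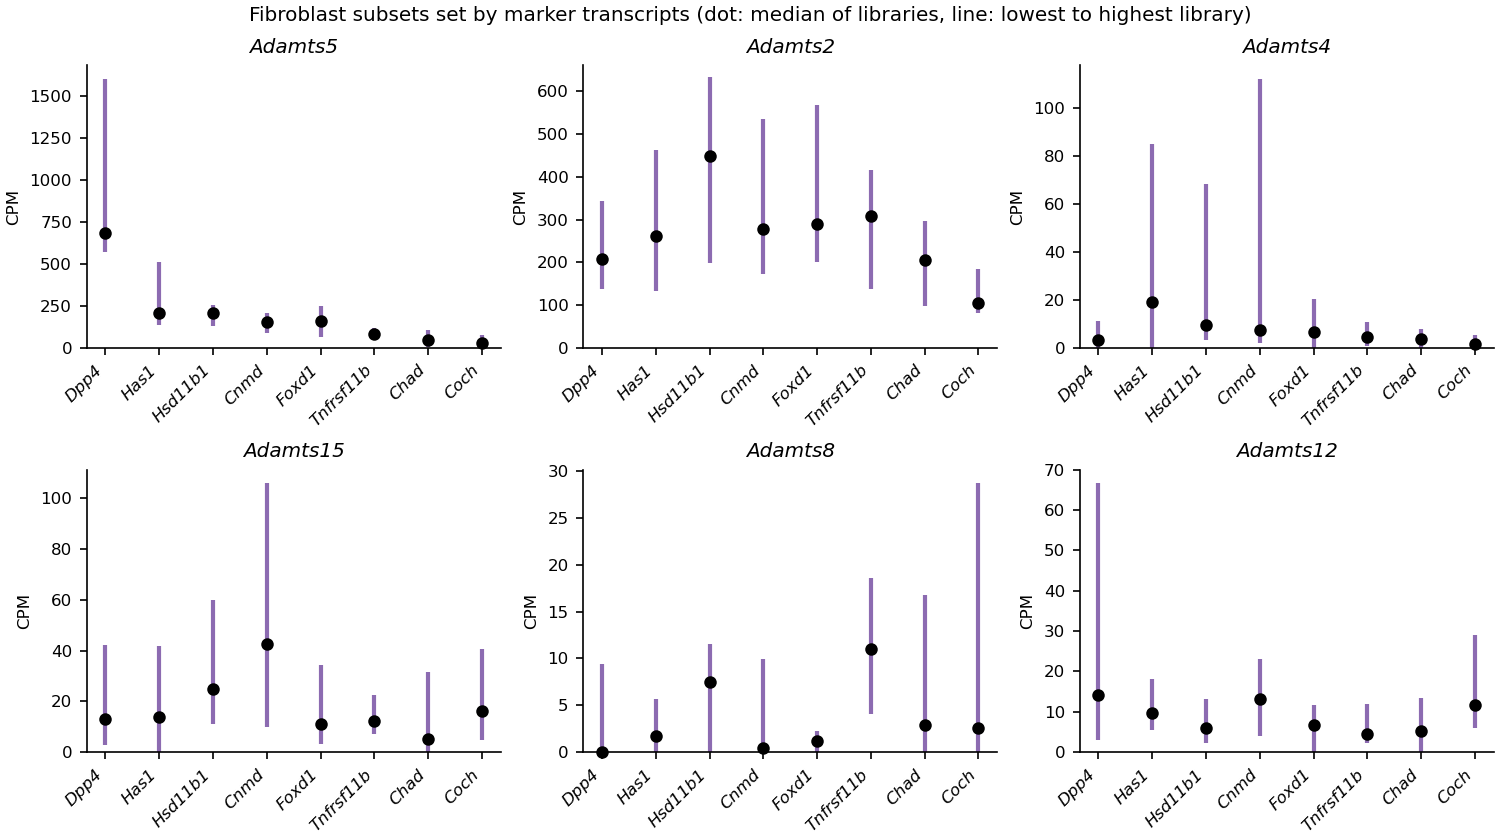
CPM of Adamts5, Adamts2, Adamts4, Adamts15, Adamts8 and Adamts12 (vertical axes) in the 8 fibroblast subsets (horizontal axis). Each dot is the median over libraries with at least 20 cells of the subset, and the line runs from the lowest to the highest library. The Dpp4/Smpd3 subset stands apart for Adamts5, with a lowest library of 569.9 CPM, and the Hsd11b1/F3/Vegfd subset has the highest median of Adamts2, 448 CPM.

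VSMCs were split in the same way by Notch3 with Enpep (541 cells) and Ptprz1 with Tes (4605 cells), and tested in the 22 sums of the libraries that held at least 20 of both. Of the 5 members tested, 2 were higher and 1 lower in the Notch3/Enpep cells, where 21.1% of genes tested were called. Adamts1 had a median of 225 CPM in the Notch3/Enpep cells (151 to 486, 12 libraries) and 70.4 CPM in the Ptprz1/Tes cells (49.2 to 152, 13 libraries), so the ranges barely met (log2 difference 1.59, SE 0.13, edgeR adjusted p = 1.3e-09). It was 1.28 in the 30 min digestions alone and 1.68 in the 60 min digestions alone. VSMCs could include the pericyte-like cells described at the end, whose share of either subset was not counted.

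Adamts5 had a median of 39.6 against 23.6 CPM in the Notch3/Enpep and Ptprz1/Tes cells (log2 difference 0.51, SE 0.17, edgeR adjusted p = 0.035). Adamts2 had 60.6 against 82.8 CPM (-0.35, SE 0.12, edgeR adjusted p = 0.049). The Adamts5 difference was 1.35 in the 30 min digestions alone and 0.26 (edgeR adjusted p = 0.37) in the 60 min digestions alone, and it stayed called in 6 of 11 fits that left out 1 library. It was lost without Smad3+/+ replicates 2 or 4 or Smad3SmKO replicates 2 or 7 at 18 weeks, or Smad3SmKO replicate 1 at 10 weeks. The Adamts2 difference was -0.77 at 30 min and -0.22 (edgeR adjusted p = 0.33) at 60 min, and it stayed called in 2 of the 11 fits, those without Smad3SmKO replicate 7 at 18 weeks or replicate 1 at 10 weeks. DESeq2 did not call it (adjusted p = 0.057). Adamts1 stayed called in all 11. Adamts10 (-0.35, SE 0.15) and Adamts8 (-0.26, SE 0.24) did not pass, and Adamts4, Adamts9, Adamts12 and Adamts15 were too sparse to be tested. A list of 20 genes known to respond to tissue digestion, mostly immediate early and heat shock genes, was also higher in the Notch3/Enpep cells, 17 of 20 called with a median log2 difference of 1.21, and its part in the Adamts1 difference was not tested.

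Adamts1 and Adamts4 can rise while tissue is dissociated, so 60 min and 30 min digestions were compared within 18 weeks. Digestion time was set by batch and went with the tracer label, so these cannot be told apart. In VSMCs, Adamts1 was lower after 60 min. The 7 libraries of 30 min ran from 160.2 through a median of 289.5 to 610.2 CPM, and the 5 libraries of 60 min held 109, 78.1, 73.3, 117 and 85.3 CPM. The groups did not overlap (log2 difference -1.67, SE 0.26, edgeR adjusted p = 0.0021). It was the 1 of 7 tested members that was called (Adamts4 and Adamts12 were too sparse to test), where 3.55% of genes were called and 2.68% did not overlap between the groups. The other tested members ran from -0.95 (Adamts15, SE 0.34, edgeR adjusted p = 0.14) to 0.45 (Adamts2, SE 0.21, edgeR adjusted p = 0.28), and the 4 libraries of 10 weeks, all of 60 min, held 63.1 to 96.1 CPM of Adamts1.

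Other measures moved with that difference in VSMCs, and their part in it was not tested. VSMCs numbered 763 in the 7 libraries of 30 min and 3029 in the 5 libraries of 60 min. The Notch3/Enpep share of VSMCs was 11.5% to 62.5% in the 30 min libraries, 5.02% to 15% in the 60 min libraries and 1.45% to 3.87% at 10 weeks. Within the Ptprz1/Tes cells Adamts1 was still 84.3 to 152 CPM in 4 libraries of 30 min and 49.2 to 88.7 CPM in 5 of 60 min, and within the Notch3/Enpep cells it was 213 to 486 and 159.8 to 283 CPM in 4 libraries each. The summed VSMC markers were 35247 to 57446 CPM at 30 min and 56061 to 72781 CPM at 60 min, the fibroblast markers 561 to 910.4 and 749.6 to 1515 CPM, and the endothelium markers 54.9 to 117 and 39.1 to 67.5 CPM. Of the 20 digestion response genes 3 were lower after 60 min, Klf4 (-1.39), Btg2 (-1.07) and Hspa1a (-1.67), with a list median of -0.41 against -0.00 over all genes.

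In fibroblasts none of the 9 members was called by edgeR for digestion time, where 1.95% of genes were called. At an unadjusted p under 0.05 there were 5, beside 2777 of all 14285 genes, and DESeq2 called 3, namely Adamts1, Adamts4 and Adamts15, beside 1184 of 13406 genes. Adamts4 ran from 4.20 through a median of 7.15 to 15 CPM at 30 min, and the libraries of 60 min held 54.3, 16.3, 11, 17.7 and 22.9 CPM. The groups overlapped through the library at 11 CPM, Smad3SmKO replicate 5 (log2 difference 1.71, SE 0.41, edgeR adjusted p = 0.051). It was called without replicate 5 (1.93, edgeR adjusted p = 0.036) or replicate 3 (1.97, edgeR adjusted p = 0.031) of the Smad3SmKO libraries at 18 weeks. Adamts1 had a median of 132.4 CPM at 30 min (104 to 184) and 331, 225, 178, 167 and 113 CPM at 60 min, again with overlap (0.75, SE 0.21, edgeR adjusted p = 0.083). It was called without Smad3SmKO replicate 7 (0.90, edgeR adjusted p = 0.033). Adamts15 was at -0.98 (SE 0.26, edgeR adjusted p = 0.074). Its groups did not overlap, where 6.32% of genes were separated in the same way.

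The Has1/Spon2/Cxcl5 share of fibroblasts was 4.45% to 10.4% at 30 min, 13% to 42.1% at 60 min and 2.29% to 11.1% at 10 weeks. Within those cells Adamts4 was 7.72 to 38.1 CPM at 30 min and 26.0 to 85.0 CPM at 60 min, and within the Hsd11b1/F3/Vegfd cells 4.05 to 19.6 and 9.40 to 68.3 CPM. Of the digestion response genes 2 of 20 were higher in fibroblasts after 60 min, Atf3 and Ier3, each by a log2 difference of 1.42, and the list median was 0.57 against 0.00.

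In the endothelium rule 4 of 9 members were called, 3 higher and 1 lower after 60 min, where 2.71% of genes were called. Adamts4 ran from 4.48 through a median of 5.69 to 15.1 CPM at 30 min, and the 60 min libraries held 58.7, 21.7, 32, 30.8 and 39.9 CPM, all above the 30 min libraries (log2 difference 2.43, SE 0.32, edgeR adjusted p = 0.0022). Adamts15 did not overlap between the groups either, and 3.79% of genes were separated in the same way. Adamts9 (1.08, SE 0.25, edgeR adjusted p = 0.034) and Adamts1 (0.86, SE 0.21, edgeR adjusted p = 0.045) were higher, and Adamts15 was lower (-1.20, SE 0.27, edgeR adjusted p = 0.032). With cells of more than 1 rule left out, Adamts4 stayed called (2.59, SE 0.42), Adamts1 (0.77, SE 0.25, edgeR adjusted p = 0.16) and Adamts9 (0.68, SE 0.25, edgeR adjusted p = 0.20) kept their direction without passing, and Adamts15 was too sparse to test. With batch as a random effect, Adamts4 alone stayed called (2.52, SE 0.40, limma adjusted p = 0.023), and Adamts1 (0.79), Adamts9 (1.11) and Adamts15 (-1.29) had values near those above. The summed fibroblast markers in these cells were 9089 to 18944 CPM at 30 min and 3664 to 11236 CPM at 60 min, and the VSMC markers 872 to 3358 and 3255 to 30019 CPM. Their part in the 4 differences was not tested. Of the 12 fits that left out 1 library, Adamts4 stayed called in 12, Adamts9 in 6, Adamts15 in 5 and Adamts1 in 3. Adamts4 was the only one left without Smad3+/+ replicates 2, 3 or 4 or Smad3SmKO replicate 2.

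The digestion difference in VSMCs minus that in fibroblasts was tested directly in 1 fit of both cell types. Adamts1 was called, at -2.31 (SE 0.27, 95% interval -2.84 to -1.78, edgeR adjusted p = 0.0019), as 1 of 9 members, where 2.1% of genes were called. Adamts4 (-2.68, SE 0.77, edgeR adjusted p = 0.092), Adamts9 (-1.17, SE 0.32, edgeR adjusted p = 0.082) and Adamts5 (-0.83, SE 0.22, edgeR adjusted p = 0.068) did not pass, and DESeq2, which called 447 of 12100 genes, called all 3 of them. Without Smad3SmKO replicate 7, Adamts4 (-3.29, edgeR adjusted p = 0.023) and Adamts5 (-0.92, edgeR adjusted p = 0.029) were called. Adamts5 was called without Smad3SmKO replicate 2 (-0.99, edgeR adjusted p = 0.029), and Adamts9 without Smad3SmKO replicate 3 (-1.36, edgeR adjusted p = 0.044). The digestion response list had 7 of 20 genes lower, with a median of -1.03 against 0.01 over all genes, among them Atf3 (-1.99), Klf4 (-1.86) and Klf6 (-0.93), and Thbs1, the angiogenesis inhibitor thrombospondin 1, was at -2.58.

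**Figure D4:**
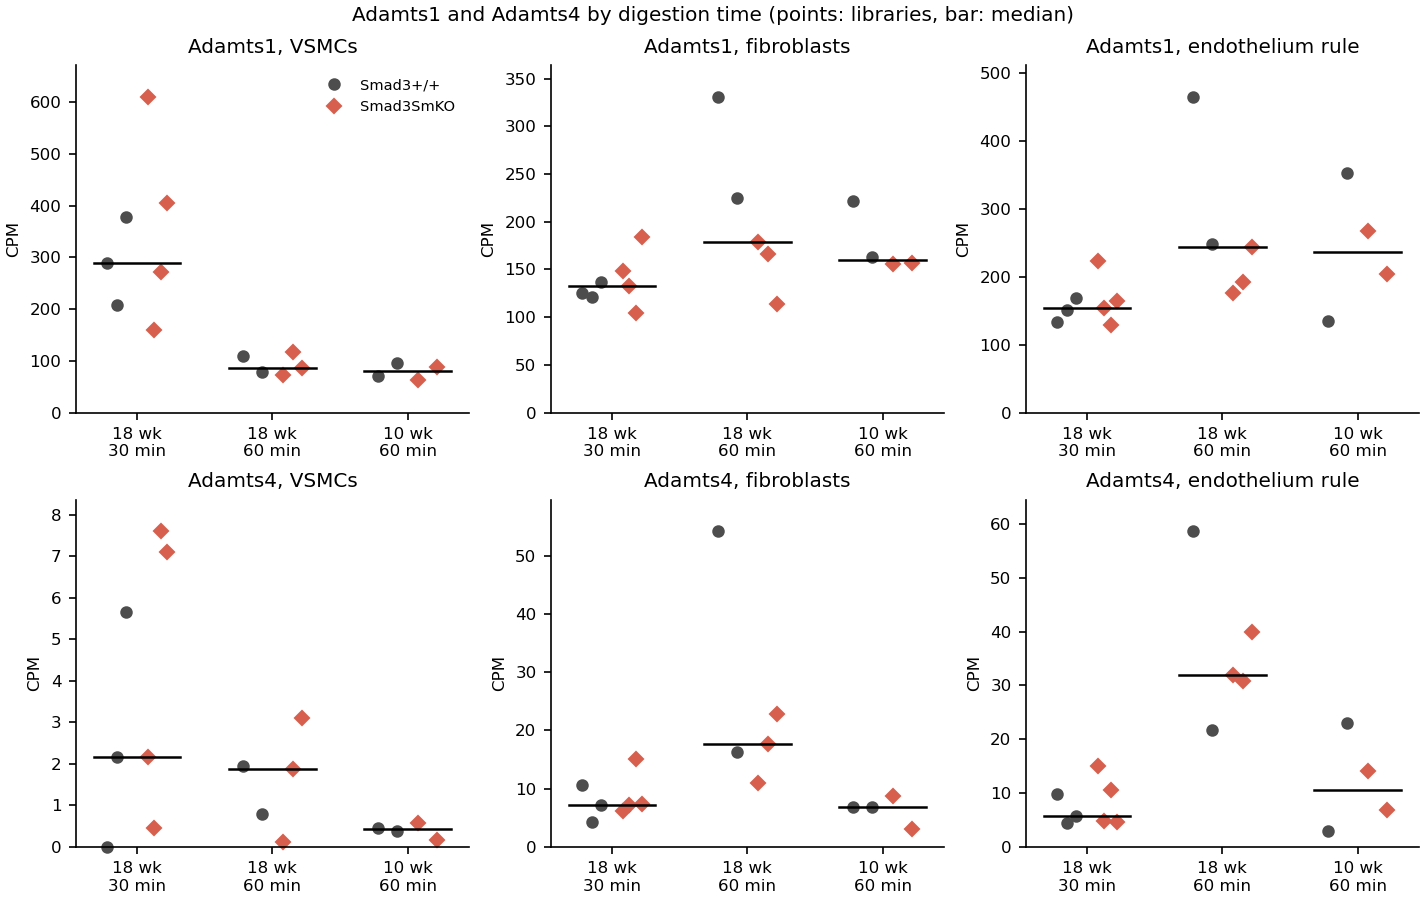
CPM of Adamts1 and Adamts4 (vertical axes) in VSMCs, fibroblasts and cells of the endothelium rule, by digestion time and weeks after deletion (horizontal axis). Each point is 1 library, coloured by genotype, and the bar is the median. Adamts1 in VSMCs is at 160.2 to 610.2 CPM in the 30 min libraries and at 73.3 to 117 CPM in the 60 min libraries of 18 weeks.

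The sequence upstream of Adamts1 is shown because its level moved with the digestion batches. RefSeq promoter windows were given for 4 members, Adamts1, Adamts2, Adamts9 and Adamts12. The 250 bases before the Adamts1 start, chr16:85803114-85803363 on the minus strand of GRCm38.p6, are written 5′ to 3′ with the 1 motif match in capitals.
Adamts1: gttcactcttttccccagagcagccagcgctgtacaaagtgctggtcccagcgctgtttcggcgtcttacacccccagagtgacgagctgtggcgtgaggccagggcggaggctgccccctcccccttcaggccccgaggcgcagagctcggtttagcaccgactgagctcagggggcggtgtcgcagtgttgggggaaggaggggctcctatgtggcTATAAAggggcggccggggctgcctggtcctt

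The capitals mark TATAAA, which starts 32 bases before the annotated start and is held on either strand by 13.6% of the 32851 RefSeq windows, which also reach past the start. The other motifs searched on both strands were TGACTCA (AP-1, in 5.20% of promoters), TGACGTCA (cyclic AMP response element, 1.79%), GTCTAGAC (SMAD palindrome, 0.213%), CAGACA (SMAD element, 21.0%), a serum response element (0.0639%) and an NF-κB site (0.155%). None of these was in the windows of the 4 members.

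The genotypes were compared with batch as a term. Smad3SmKO replicates 5 and 7 at 18 weeks formed a batch without controls, so they added nothing to the size of these differences. No member was called in any cell type or at either time by edgeR, DESeq2 or the other fits tried. In simulated data the fit for VSMCs at 18 weeks recovered 24.7% of log2 differences of 1 and 76.3% of those of 2. The spread in that simulation was set and not taken from these libraries. At an unadjusted p under 0.05 there was 1 member in VSMCs at 10 weeks, 1 in VSMCs at 18 weeks and 1 in the endothelium rule at 10 weeks, and 0 in the endothelium rule at 18 weeks and in fibroblasts at either time. Among all genes, edgeR called 0.0422% in VSMCs at 18 weeks (5 of 11852) and 0% in VSMCs at 10 weeks, in the endothelium rule and in fibroblasts. Unadjusted, 219 genes were below 0.05 in VSMCs at 10 weeks (DESeq2 called 1), 427 and 361 in the endothelium rule at 10 and 18 weeks (7 and 0) and 119 and 363 in fibroblasts (3 and 3). That count is not given for VSMCs at 18 weeks, so the 1 member under 0.05 there stands without a background.

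Adamts8 was the member under that limit in VSMCs at both times. At 18 weeks the Smad3+/+ libraries held 17.0, 17.4, 17.0, 8.95 and 18.5 CPM, and the libraries labelled Smad3SmKO ran from 6.52 through a median of 10.8 to 14.2 CPM. The groups overlapped through Smad3+/+ replicate 4 (log2 difference -0.95, SE 0.28, 95% interval -1.51 to -0.40, edgeR adjusted p = 0.86). At 10 weeks they held 11.1 and 8.21 CPM against 4.95 and 4.85 CPM, with no overlap in so few libraries (-0.95, SE 0.31, edgeR adjusted p = 1), and 28.2% of genes were separated in the same way. The batch means were lower in the libraries labelled Smad3SmKO in 5 of 5 batches with both genotypes, a count taken after its values were seen. Adamts12 in the endothelium rule was also lower in 5 of 5, and the share over all genes was not counted. VSMC sums held 4 to 225 UMIs of Adamts8.

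**Figure D5:**
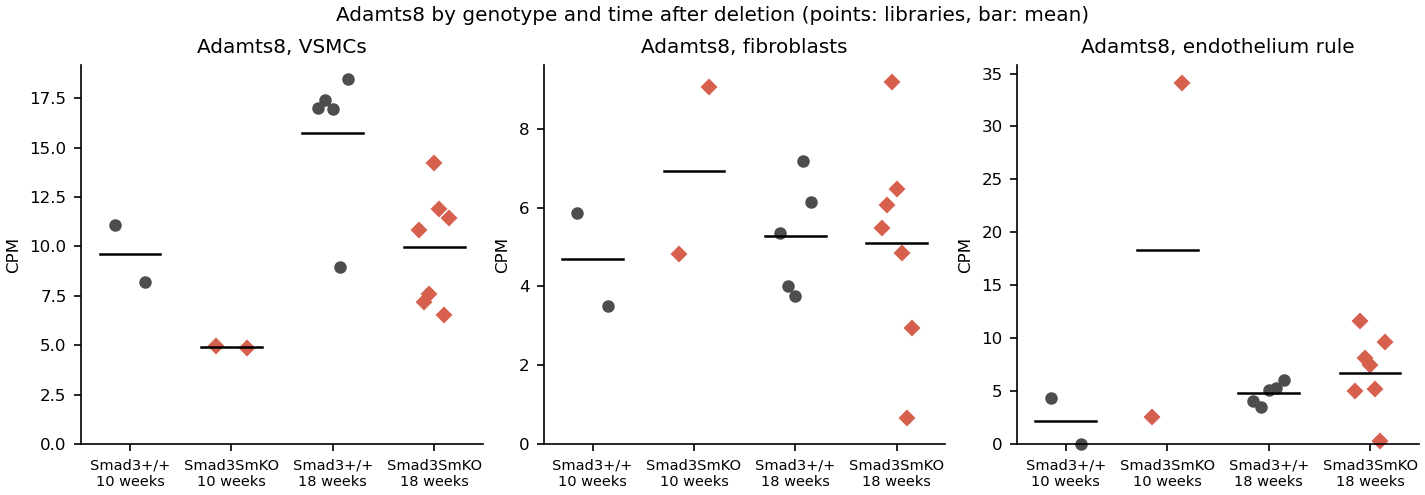
CPM of Adamts8 (vertical axis) by genotype and weeks after deletion (horizontal axis) in VSMCs, fibroblasts and cells of the endothelium rule. Each point is 1 library and the bar is the group mean. In VSMCs at 18 weeks 4 of 5 Smad3+/+ libraries are at 17.0 CPM or above, and replicate 4 is at 8.95 CPM, within the range of the libraries labelled Smad3SmKO.

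Adamts1 in VSMCs was at 0.29 between genotypes at 18 weeks (SE 0.22, 95% interval -0.15 to 0.73) and at -0.13 at 10 weeks (SE 0.34). Within digestion times it was 208.3 to 377 CPM in Smad3+/+ against 160.2 to 610.2 CPM in Smad3SmKO libraries at 30 min, and 78.1 to 109 against 73.3 to 117 CPM at 60 min. Adamts5 stood at -0.19 (SE 0.23), Adamts2 at 0.21 (SE 0.23), Adamts10 at -0.26 (SE 0.24) and Adamts9 at -0.31 (SE 0.28) in VSMCs at 18 weeks. Adamts4 (0.82, SE 1.06), Adamts12 (0.87, SE 0.83) and Adamts15 (-0.21, SE 0.49) had wide errors there.

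In fibroblasts, to which Myh11-CreER is not directed, the 9 differences at 18 weeks lay between -0.22 (Adamts8, SE 0.58) and 0.27 (Adamts5, SE 0.20). In the endothelium rule at 10 weeks, Adamts2 was at 97.6 and 209 CPM in Smad3+/+ and at 75 and 77.0 CPM in Smad3SmKO libraries (-1.0, SE 0.35, edgeR adjusted p = 1), where 27.4% of genes did not overlap between genotypes. It was 0.03 (SE 1.05) in the cells that met the rule alone. The genotype difference at 18 minus 10 weeks was called for no member in VSMCs, where 0.00844% of genes were called, or in fibroblasts, where 0% were, and 0 members had an unadjusted p under 0.05. For Adamts8 in VSMCs it was -0.00 (SE 0.52). The genotype difference in VSMCs minus that in fibroblasts at 18 weeks likewise gave 0 members called or under that limit, with 0% of genes called (566 at an unadjusted p under 0.05, and 2 called by DESeq2). For the difference between times in fibroblasts 130 genes were below 0.05 unadjusted, and DESeq2 called 1.

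Genes around the members in their pathway were counted from lists, beginning with fibroblasts against VSMCs. Of 10 other Adamts genes 3 were tested, and Adamts19 (log2 difference 5.08, SE 0.35) and Adamts7 (4.35, SE 0.33) were higher and Adamts6 lower (-0.42, SE 0.14). Of 6 ADAMTS-like genes tested, which lack the protease domain, 3 were higher and 2 lower, from Adamtsl2 at 5.92 (SE 0.23) to Thsd4, also named Adamtsl6, at -4.04 (SE 0.17). Of 14 substrates tested 10 were higher and 3 lower, among them the coagulation inhibitor Tfpi2 (5.98, SE 0.24) and the collagen chains Col1a1 (2.23, SE 0.13) and Col3a1 (2.10, SE 0.14), with a list median of 1.67 against 0.02 over all genes.

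Of the 5 inhibitors and clearance genes, Timp1 (4.52, SE 0.22), Lrp1 (1.87, SE 0.13), Timp2 (1.74, SE 0.10) and Timp3 (1.29, SE 0.09) were higher in fibroblasts and Timp4 lower (-1.93, SE 0.22). Of 6 maturation genes 2 were higher, the convertases Pcsk6 (3.56, SE 0.25) and Pcsk5 (1.46, SE 0.19), and 2 lower, the O-fucosyltransferase Pofut2 (-0.52, SE 0.07) and Furin (-0.31, SE 0.07). Of the 20 digestion response genes 13 were higher and 5 lower, with a median of 0.89.

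The same lists differed between the VSMC subsets. In Notch3/Enpep against Ptprz1/Tes cells, 3 of 13 substrates were higher and 5 lower, with Thbs1 at 3.95 and aggrecan (Acan) at 2.08 but versican (Vcan) at -2.05, Col1a2 at -0.76 and Col1a1 at -0.69. Timp4 was higher (0.99), and Timp2 (-0.50) and Lrp1 (-0.49) were lower. For digestion time in VSMCs, 3 of 13 substrates were higher after 60 min, Fn1 (1.18), Col1a1 (0.95) and Fbn1 (0.66), as were Lrp1 (0.64) and Timp2 (0.62) of 5 inhibitors and clearance genes. Between genotypes edgeR called no gene of these lists in any comparison.

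The genes whose log2 CPM was most alike to each member over the 48 sums of 16 libraries and 3 cell types are given as a description, since sums of 1 library share its depth and its cells share barcodes. For Adamts2 they were Col1a2 (Pearson r 0.95), Grn and Rcn1 (0.93 each), for Adamts5 Gpx3, Serping1 (0.90 each) and Dact1 (0.89), and for Adamts12 Glrb (0.91). For Adamts9 Mgll was first (0.84), followed by Epas1, the hypoxia-inducible factor 2α. For Adamts4 they were Myc (0.84), Atf4 (0.83) and Myd88 (0.82), for Adamts1 Coq10b (0.78), Zbtb10 (0.76) and Rasd1 (0.74), for Adamts10 Sel1l (0.89), for Adamts15 Ndn (0.85), and for Adamts8 Ccdc51 (0.74). Among the members themselves the highest was Adamts2 with Adamts5 (0.79), while the neighbours Adamts1 and Adamts5 were at 0.22 and Adamts15 and Adamts8 at -0.12.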

How the data were processed

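Each library came as a matrix of UMI counts, deposited without normalization. Per the study, Cell Ranger aligned to mm10 plus a GFP sequence (the submitters' processing notes name Cell Ranger 6 and Seurat 4). Fluorescence-sorted, nucleated, live cells had been sequenced from 3′ ends after collagenase and elastase digestion. Here, cells with 600 to 6000 genes, 2000 to 50000 UMIs and under 25% mitochondrial UMIs were kept, by limits of the study's methods, and somewhat more cells were kept than the study states. No doublet caller was run, and 1081 kept cells held at least 5 UMIs of both Myh11 and Dcn. UMIs were summed per library and cell type with at least 20 cells, scaled to CPM, and sums were tested on the counts with edgeR 4.0.16 (quasi-likelihood, TMM, filter at a minimum count of 10) in R 4.3.3, with Benjamini-Hochberg adjustment over all genes tested and a threshold of 0.05, in place of the study's tests over cells. Genotype fits had a batch term, digestion fits genotype, and cell type and subset fits a library block. DESeq2 1.42.0 and limma 3.58.1 served as alternatives. Scripts were tested on simulated data. Members were reported in every comparison, lists by counts and by up to 5 called genes with the smallest p. Members, marker sets and lists were chosen with earlier results of these data known. Labels and GFP UMIs disagreed on the tracer in 4 libraries.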

Additional observations from a re-analysis of the deposited data

Results flagged for a closer look

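In the digestion comparison, Adamts1 differed between cell types by a test of the difference itself, at -2.31 on the log2 scale for VSMCs minus fibroblasts. Among the 54 groups of 4 to 10 libraries checked for a library far from the others by Dixon's limit, 3 were found, and chance gives about 1 in 20. Adamts2 in fibroblasts was lowest in Smad3SmKO replicate 6 at 18 weeks, at 176 CPM, with the next library at 303. Adamts4 in fibroblasts was highest in Smad3+/+ replicate 4 at 18 weeks, at 54.3 CPM, with the next at 16.3. Adamts8 in VSMCs was lowest in the same Smad3+/+ replicate 4, at 8.95 CPM, with the next at 17.0.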

How the results depend on the processing

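No paired analysis was possible because the replicate numbers follow accession order only and pair no mice across genotypes. Counts of members called are given by setting, and the cause of each move was not tested. For the digestion difference of VSMCs minus fibroblasts, 1 member was called, 4 with DESeq2, 4 without a filter on low counts and 2 in Smad3+/+ libraries alone, and 1 to 3 when each library was left out. For digestion time in VSMCs, 1 was called and 2 without a filter. In the endothelium rule, 4 were called, and 1 with batch as a random effect, with cells of 2 types left out or with stricter marker thresholds, and 1 to 4 with a library left out. In fibroblasts, 0 were called, 3 with DESeq2, 0 to 1 with a library left out, and 1 under 6 settings: cells with both Myh11 and Dcn left out, Smad3+/+ libraries alone, all deposited barcodes, cells with heart muscle transcripts left out, no filter, and stricter thresholds. For the VSMC subsets, 3 were called, 1 in 60 min digestions alone, with at least 50 cells, without cells with heart muscle transcripts or with stricter thresholds, and 1 to 3 with a library left out. Endothelium against VSMCs gave 7 to 8 with a library left out. Adamts2 (-2.65), Adamts10 (-0.38), Adamts12 (-0.034) and Adamts15 (-2.28) reversed in the endothelium against VSMCs with cells of 2 types left out, as did Adamts1 there in the 30 min digestions alone (-1.09) and in fibroblasts against VSMCs in the 60 min digestions alone (1.04). Adamts8 between genotypes in VSMCs at 18 weeks lay between -1.24 and -0.62 over the alternatives and stayed uncalled. The settings without cells of both Myh11 and Dcn and without shared barcodes were chosen after seeing the data, and the second changed 1 count, that of the VSMC subsets, from 3 to 2. Libraries of under 50 VSMCs and the few UMIs of Adamts4, Adamts8 and Adamts12 limit what could be detected.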

Other observations

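Cells taken by other marker rules also held the members. The pericyte-like rule, at least 3 UMIs of Vtn, Higd1b and Kcnj8 together, leaves out fibroblasts and endothelium but not VSMCs, so its cells can also be in the VSMC sums. These cells, pooled over libraries, held 271 CPM of Adamts1 (95% counting interval 252 to 292), 35.7 CPM of Adamts4 (29.0 to 43.5) and 25.8 CPM of Adamts9 (20.2 to 32.6). Their sums, in the 3 libraries with at least 20 of them, also held 34700.1 to 62990.5 CPM of the 6 VSMC markers, beside 35247 to 72781 CPM in VSMCs, and 3004 to 9156 CPM of the 6 pericyte markers. Schwann-like cells held 346 CPM of Adamts1 (303 to 393) and 91.7 CPM of Adamts5 (70.3 to 118). These pooled values carry no replicate error.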
